A study of Mus musculus with 10 samples.

Results

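The 10 genes described here encode granins and the proteins that cut and trim prohormones in dense-core vesicles. They were taken by symbol from a list (Scg2, Scg3, Scg5, Chga, Chgb, Vgf, Pcsk1, Pcsk2, Pcsk1n and Cpe), and all 10 were found among the 56691 genes of the count table. The list was chosen by a measured value of these libraries, the higher Scg3 level after restraint, so the restraint values of its members are given as a description. All 10 passed the filter on low counts that left 18440 genes. Their lowest count in any library was 3273.

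The samples were ventral tegmental area, a midbrain region rich in dopaminergic neurons, from male C57BL/6 mice labelled WT. The 5 control libraries came from mice without restraint and the 5 restraint libraries from mice held still for 30 min, a short stressor. In both groups dopaminergic neurons carried a construct labelled NBL10-HA, and the RNA bound to ribosomes was enriched before sequencing. The ages of the mice, the promoter or Cre line behind the construct, and whether a library came from 1 mouse or several are not given in the sources used here, so p-values measure only the spread between these libraries.

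Granins are acidic proteins that condense in the Golgi and help to form dense-core vesicles, the large vesicles from which neurons release peptides. Inside these vesicles the convertases encoded by Pcsk1 and Pcsk2 cut prohormones after pairs of basic residues, and carboxypeptidase E, encoded by Cpe, removes the basic residues left at the new ends. Scg5 encodes a chaperone of the Pcsk2 convertase, and Pcsk1n encodes proSAAS, an inhibitor of the Pcsk1 convertase. Scg2 and Vgf are known as genes that neuronal activity can induce. Cpe and Scg3 are also expressed by astrocytes, so their RNA is not special to neurons.

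The region around the start site was looked at in the RefSeq promoter sequences of build GRCm38.p6, in which 8 of the 10 genes were matched by symbol, all except Vgf and Cpe. Each window runs from 250 bases before to 50 bases after the start. The cAMP response element TGACGTCA, the letters bound by CREB, stood in 3 of the 8 windows, those of Scg2, Chgb and Pcsk1, and in 1.79% of all 32851 windows. Its first base lay 68 bases before the start in Scg2, 72 in Chgb and 78 in Pcsk1. The shorter TGACG, on either strand, is part of that element and was in 7 of the 8 windows, all except Pcsk1n, and in 20.8% of all windows. The AP-1 letters TGANTCA on either strand were found in Pcsk1n alone among the 8 (7.81% of all windows), and TATAAA on either strand in Chga alone (13.6%), where it lay after the start. The last 100 bases before the start are shown for the genes with the full element and for Chga and Scg3, which hold only the short form there, 44 and 30 bases before the start. The capitals mark the full element, or the short form in the last 2 genes, on the strand of the gene.
Scg2, chr1:79440027-79440126, minus strand: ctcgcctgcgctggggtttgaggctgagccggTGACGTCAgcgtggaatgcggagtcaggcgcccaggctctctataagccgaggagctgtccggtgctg
Chgb, chr2:132781542-132781641, plus strand: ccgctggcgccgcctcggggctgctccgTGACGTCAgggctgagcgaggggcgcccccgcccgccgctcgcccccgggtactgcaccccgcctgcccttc
Pcsk1, chr13:75089757-75089856, plus strand: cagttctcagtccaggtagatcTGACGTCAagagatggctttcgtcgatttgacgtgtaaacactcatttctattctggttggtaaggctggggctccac
Chga, chr12:102554841-102554940, plus strand: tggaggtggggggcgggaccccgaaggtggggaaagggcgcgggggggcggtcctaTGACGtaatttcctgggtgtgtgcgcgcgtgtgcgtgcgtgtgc
Scg3, chr9:75684057-75684156, minus strand: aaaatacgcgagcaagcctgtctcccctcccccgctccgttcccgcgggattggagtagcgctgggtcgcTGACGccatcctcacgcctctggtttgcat
These matches describe letters only. Binding was not measured.

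Library totals ran from 56082358 to 86584968 counts. Restraint 1 stood apart in a principal component analysis (first component 92.1, against -19.2 to 4.08 in the other 9 libraries) and had 20936 genes with a count, against 22268 to 24513. Low counts were mostly even numbers, 76.8 to 79.8% of counts from 1 to 30 in controls and 80.0 to 84.8% after restraint, and the part of this difference in the results was not tested. The tyrosine hydroxylase gene Th, a marker of dopaminergic neurons, had 411 ± 78.6 CPM in controls (CPM being counts scaled to the TMM-normalized library size, SD, n = 5), while the astrocyte gene Gfap had 1919 ± 121 CPM, the GABA neuron gene Gad1 549 ± 70.2 CPM and the glutamate neuron gene Slc17a6 398 ± 14.3 CPM. Per kilobase of exon the control levels were 174 CPM for Th, 455 for Gfap, 71.8 for Gad1 and 73.7 for Slc17a6. By this measure Th stood above Gad1 and Slc17a6 but below Gfap. The Gfap level shows that RNA of other cells was present. In such bulk RNA fewer cells of a type and less RNA per cell cannot be told apart.

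By level per exon length in controls, these genes were among the most abundant in the libraries, with 8 of the 10 in the top 5% of tested genes and 4 in the top 1%. The plot of levels per exon length shows the order. Cpe stood first at 1284 ± 185 CPM per kilobase (SD, n = 5), rank 6 of 18440 genes. Scg2, the precursor of secretoneurin, followed at 611 ± 89.2 and Pcsk1n at 316 ± 115 CPM per kilobase. The control ranges of these first genes were 961 to 1408, 497 to 706 and 201 to 458, so Cpe, Scg2 and Pcsk1n did not overlap.

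A middle group lay close together. Chga, which encodes chromogranin A, had 241 ± 18.4 CPM per kilobase in controls, within the range of Pcsk1n. Vgf (184 ± 32.4), Scg5 (183 ± 23.7) and Chgb, which encodes chromogranin B (163 ± 18.2 CPM per kilobase), overlapped in their ranges. The highest Vgf library, at 228, also reached above the lowest Chga library, at 225. Scg3, at 117 ± 11.3 CPM per kilobase, ranged from 98.2 to 128 in controls and lay below the lowest Chgb library, at 134. After restraint its level was 161 ± 14.6, against 188 ± 28.9 for Chgb.

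The convertase genes had the lowest levels of the 10. Pcsk2 had 25.0 ± 2.14 CPM per kilobase in controls, and Pcsk1 had 10.4 ± 0.639. Pcsk2 stood 2.41 ± 0.209 times as high as Pcsk1 per exon length in controls and 2.22 ± 0.364 times after restraint. The gene for the inhibitor, Pcsk1n, stood 30.2 ± 9.52 times as high as Pcsk1 in controls and 42.3 ± 20.7 times after restraint, and the chaperone gene Scg5 stood 7.39 ± 1.15 and 7.84 ± 1.28 times as high as Pcsk2. Of the summed level of the 10 genes, Cpe held 40.9 ± 3.79% in controls and 36.5 ± 1.97% after restraint, Scg2 held 19.5 ± 1.75% and 20.9 ± 1.95%, and Pcsk1n held 10.1 ± 3.38% and 13.2 ± 4.94% (SD, n = 5 each).

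**Figure D1:**
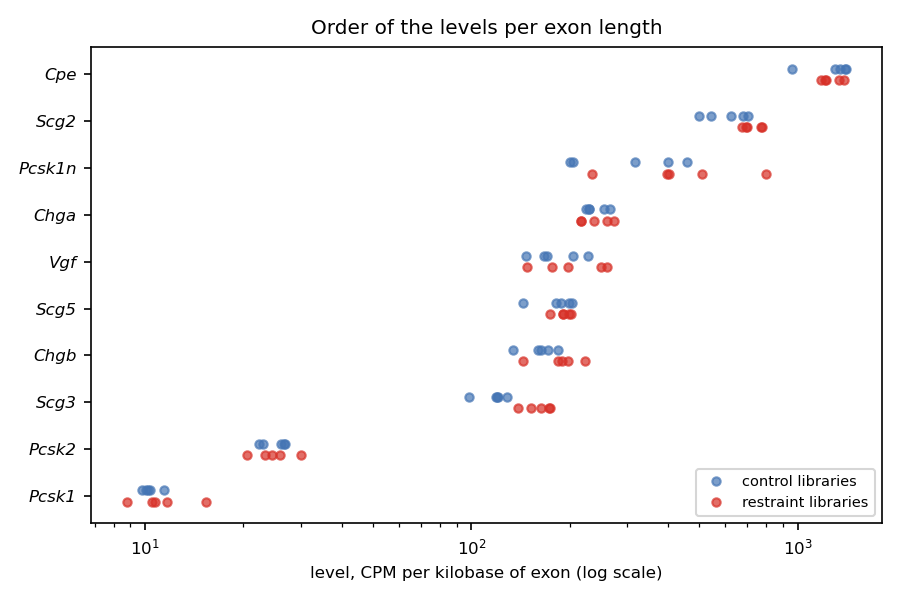
Level of each gene in CPM per kilobase of exon (log axis), 1 point per library, controls in blue and restraint in red, genes ordered by their control mean. Cpe is highest at a mean of 1284 in controls and Pcsk1 lowest at 10.4, and of the 10 genes only Scg3 has restraint points that all lie to the right of its control points.

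After restraint, Scg3 was the member with the clearest separation, Pcsk1n had the largest fitted change with a wide spread, and Scg2, Chgb, Vgf and Pcsk1 had smaller positive values. The log2 fold changes of Scg5, Chga, Pcsk2 and Cpe were each smaller than their standard error. The median log2 fold change of the 10 genes was 0.15, with 8 above 0 and 2 below, against a median of -0.0022 over all tested genes, of which 49.6% were above 0. None of the 10 passed an adjusted p under 0.05 in the fit over all genes (edgeR quasi-likelihood test, 0 higher and 0 lower), where 0.0217% of all genes passed, 0.00542% higher and 0.0163% lower. At an unadjusted p under 0.05, 3 of the 10 were higher, against 5.64% of all genes, and 0 were lower, against 6.04%. With DESeq2, 1 of the 10 (Scg3) was higher at an adjusted p under 0.05, against 0.634% of all genes. Nothing is read from these counts, since the list was drawn up from this contrast.

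**Figure D2:**
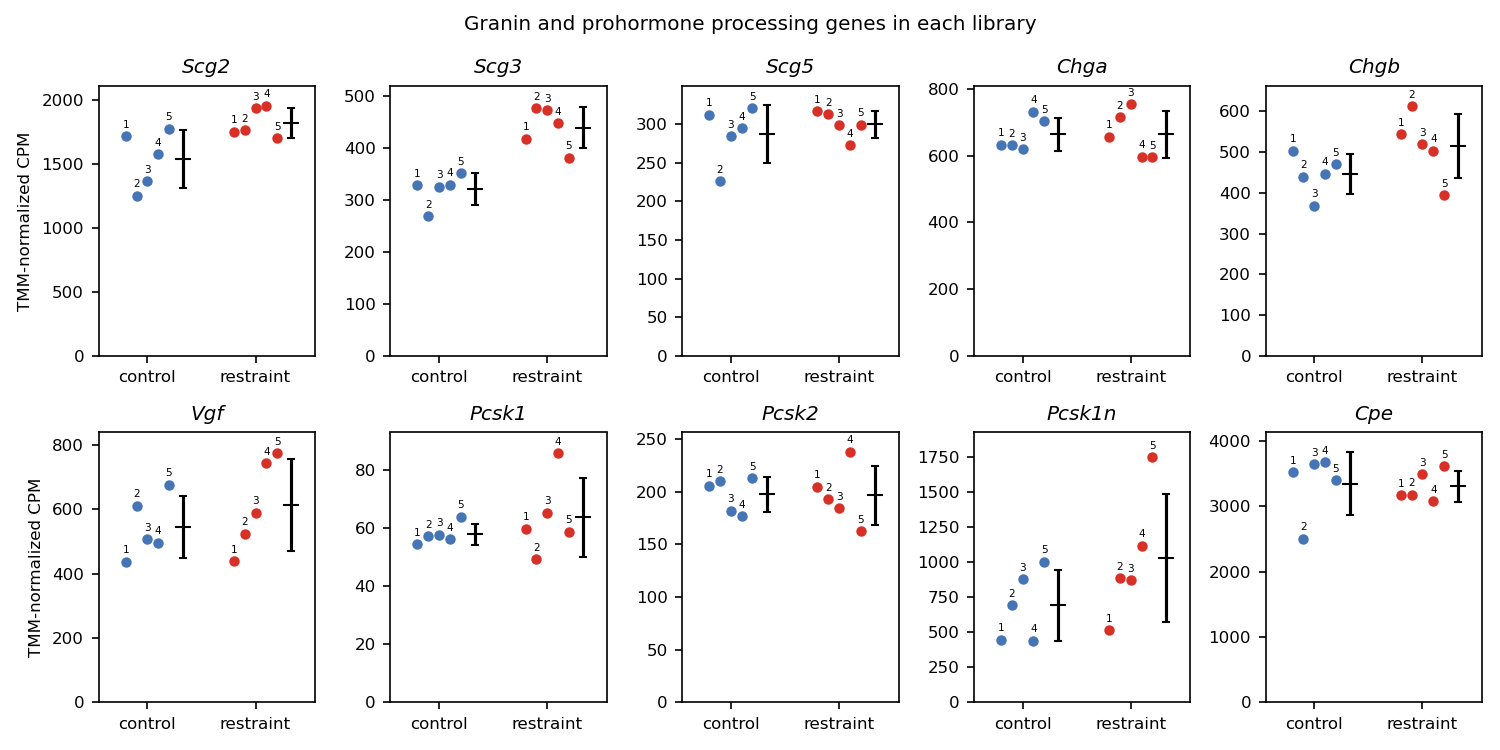
TMM-normalized CPM of each gene in every library (vertical axes start at 0), with the replicate number beside each point and the mean and SD of the 5 libraries as a black bar. The restraint libraries of Scg3 (381 to 477) all lie above its controls (269 to 352), while in each of the other panels the groups overlap.

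Among the granins, Scg3 encodes secretogranin III, which binds chromogranin A and anchors it to the vesicle membrane (chromosome 9, 75550471 to 75591338, GRCm39 as the table gives it). Scg3 had 328, 269, 326, 329.6 and 352 CPM in controls 1 to 5 and 418, 477, 472, 448 and 381 CPM in restraint 1 to 5. The groups did not overlap, control 2 being the lowest of its group and restraint 5 the lowest of the other. This was so for 1 of the 10 genes, and for 1.25% of all tested genes in the same direction. In the other direction it was so for 0 of the 10 and for 1.36% of all genes. Among named genes of the other lists, the groups also did not overlap for Gfap and Nucb2, higher after restraint, and for Qpct and Stx1a, lower. The trait is thus not particular to Scg3. The means of Scg3 were 321 ± 30.8 and 439 ± 40.1 CPM (SD, n = 5 each), a log2 fold change of 0.45 ± 0.09 (SE). With any 1 library left out it ran from 0.40 to 0.50.

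Scg2 (chromosome 1, 79412386 to 79417837) had 1715, 1251, 1365, 1576 and 1775 CPM in the controls and 1752, 1762, 1937, 1953 and 1699 CPM after restraint. Controls 2 and 3 were low, controls 1 and 5 lay inside the restraint range, and all 5 restraint libraries were above the control median. Its log2 fold change was 0.25 ± 0.09.

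The chromogranin genes Chgb and Chga had unlike fitted values, but a difference between them was not tested. Chgb (chromosome 2, 132623198 to 132636999) had 503, 439.7, 368, 447 and 469.7 CPM in controls and 543, 612, 519, 504 and 394 CPM after restraint (0.21 ± 0.11 on the log2 scale). Restraint 5 lay below 4 of the 5 controls, and the others were at or above the highest control. Without restraint 2 the log2 fold change of Chgb was 0.13. Chga (chromosome 12, 102521228 to 102531287) had 633, 631, 619, 732 and 703 CPM in controls and 657, 716, 755, 597 and 596 CPM after restraint (0.00 ± 0.08). Restraint 4 and 5 were its lowest libraries and restraint 3 its highest.

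Vgf, a granin-like precursor of peptides such as TLQP (chromosome 5, 137055246 to 137062205), had 438, 611, 507, 497 and 677 CPM in controls and 439, 524, 589.6, 743 and 774 CPM after restraint. Only restraint 4 and 5 exceeded the highest control. The log2 fold change was 0.17 ± 0.14, 0.07 without restraint 5 and 0.27 without restraint 1. Scg5 (chromosome 2, 113606707 to 113659466) had 312, 226, 284, 294 and 320.2 CPM in controls and 317, 313, 298, 272 and 299 CPM after restraint (0.06 ± 0.09). Apart from a low control 2, its libraries covered much the same range in both groups, and without control 2 the log2 fold change was -0.0080.

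Of the enzymes, Pcsk1 (chromosome 13, 75237945 to 75282980) had 54.7, 57.3, 57.9, 56.3 and 64.1 CPM in controls and 59.96, 49.3, 65.4, 86.0 and 58.9 CPM after restraint. Restraint 4 was the one library far above the controls. The log2 fold change was 0.14 ± 0.12, 0.01 without restraint 4 and 0.21 without restraint 2. Pcsk2 (chromosome 2, 143388076 to 143658205) had 206, 210.1, 182, 177 and 213 CPM in controls and 205, 193, 185, 238 and 162 CPM after restraint (-0.01 ± 0.10). Restraint 4 was again the highest library. Antisense genes share 4.54% of the exon bases of Pcsk2, and the counting did not use strand.

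Cpe (chromosome 8, 65045576 to 65146088) had 3523, 2508, 3645, 3673 and 3398 CPM in controls and 3176, 3178, 3499, 3079 and 3622 CPM after restraint (-0.02 ± 0.09). Control 2 was its lowest library, and 1 of 5 restraint libraries was above the control median. Control 2 was also the lowest control for Scg2, Scg3 and Scg5. Restraint 5 was the lowest of its group for Scg2, Scg3, Chga, Chgb and Pcsk2 and the highest for Vgf, Pcsk1n and Cpe.

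Pcsk1n (chromosome X, 7786061 to 7790649) had 448, 695, 878, 440.1 and 1005 CPM in controls and 514, 887, 874, 1119.8 and 1752 CPM after restraint. The groups overlapped between 514 and 1005 CPM, with restraint 4 and 5 above the highest control and restraint 1 near the lowest. The log2 fold change was 0.57 ± 0.27. It was 0.29 without restraint 5 and 0.75 without restraint 1, the library that stood apart. Eras, on the opposite strand, shares 6.16% of the exon bases of Pcsk1n, and reads of the 2 genes there cannot be told apart.

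**Figure D3:**
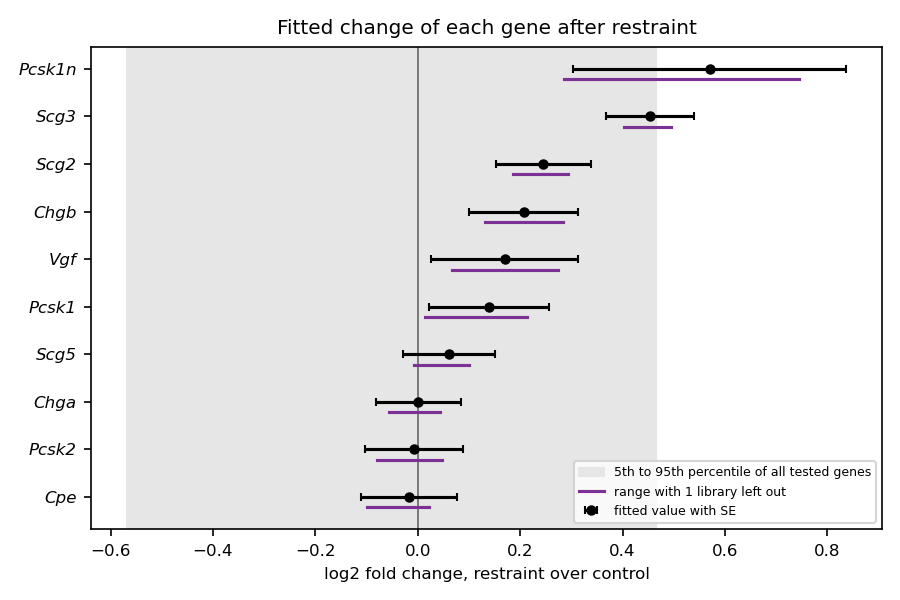
Fitted log2 fold change of each gene (horizontal axis) with its standard error (black) and the range of fitted values when any 1 of the 10 libraries is left out (purple), over the 5th to 95th percentile of all tested genes (grey). Scg3 keeps a narrow range of 0.40 to 0.50, while Pcsk1n runs from 0.29 to 0.75.

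The genes differed in how much they varied between libraries of the same group. Pcsk1n had a coefficient of variation of 36.5% in controls and 44.6% after restraint, Vgf 17.6% and 23.3%, Scg3 9.60% and 9.12%, and Chga 7.63% and 10.7%. Among 707 genes with a mean log2 CPM above 8, the within-group SD of log2 CPM of Pcsk1n lay at percentile 99.7 and that of Vgf at 98.3, while Scg3 lay at 55.7 and Chga at 50.1. The GC content of Pcsk1n was 57.3%, that of Vgf 64.1% and that of Chga 58.4%, against a median of 49.5% over tested genes. A relation between GC content and spread was not tested. With each library's trend of log2 CPM on GC content removed, an alternative added after these values were seen, the log2 fold change was 0.58 for Pcsk1n and 0.13 for Vgf.

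Pcsk1n and Vgf were high and low in largely the same libraries. Their deviations from the group means of log2 CPM had a Pearson r of 0.858 over 10 libraries (permutation p = 0.00565, adjusted 0.209 over the 45 pairs of the 10 genes) and a Spearman rho of 0.855 (permutation p = 0.00579, adjusted 0.130). Without restraint 1 and 5, the libraries with the Vgf values farthest from the median, r was 0.724. With the GC trend removed r was 0.746 (permutation p = 0.0223, adjusted 0.334) and rho 0.673 (permutation p = 0.0515, adjusted 0.351). Scg2 and Scg3 had r = 0.733 (permutation p = 0.00930, or 0.209 after adjustment) and rho = 0.745 (permutation p = 0.0243, or 0.311 after adjustment). Without controls 2 and 5 their r was 0.419, so the relation rests in part on those libraries. Pcsk2 and Cpe went opposite ways, with r = -0.588 (permutation p = 0.0180, or 0.270 after adjustment) and rho = -0.818 (permutation p = 0.00288, or 0.130 after adjustment), and with r = -0.593 without restraint 4 and 5. No pair passed the adjustment (0 of 45 for either measure, with 3 at an unadjusted p under 0.05 for r). Without control 2 alone, Vgf with Pcsk1n (r = 0.871) and Pcsk2 with Cpe (r = -0.908) passed it, each at an adjusted permutation p of 0.0349. Over all libraries left out in turn the adjusted p reached 0.551 for the former and 0.608 for the latter. The libraries share their depth and composition across genes, and 26 of the 45 coefficients were positive.

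**Figure D4:**
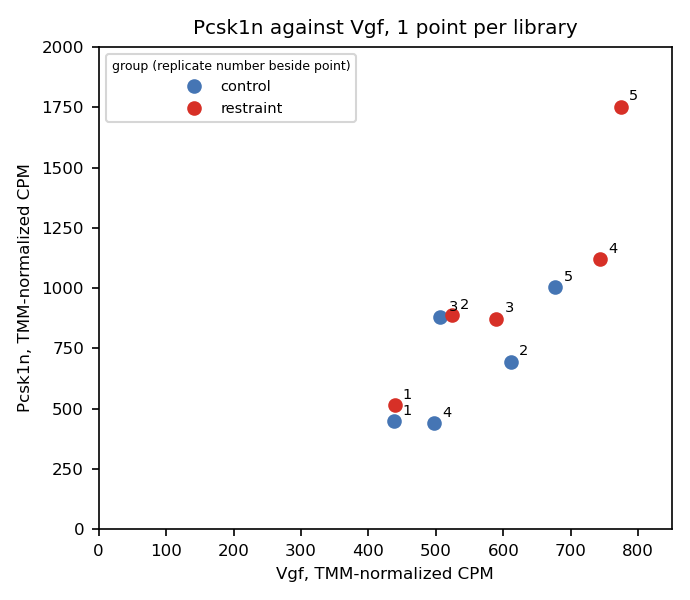
TMM-normalized CPM of Pcsk1n (vertical) against Vgf (horizontal), 1 point per library with its replicate number, controls in blue and restraint in red, both axes from 0. Restraint 5 is highest for both genes (774 and 1752), and control 1 and restraint 1 lie at the low end of both.

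Likeness to the pattern of Scg3 over the 10 libraries was taken among 8537 genes with a mean log2 CPM above 4. It was the root mean square difference of log2 CPM after centring each gene on its own mean. Predicted gene models and genes without a symbol were passed over, and the 5 nearest of the rest were named. They were Dnajc2, which encodes a ribosome-associated co-chaperone (0.08), Ing3, a histone acetyltransferase complex gene (0.09), Nol10, a nucleolar protein gene (0.09), the zinc finger gene Zfp422 (0.09) and Msi1, which encodes an RNA-binding protein (0.10). The same measure of Scg3 around its own mean was 0.26. Dnajc2 had 34.9 ± 3.02 CPM in controls and 44.2 ± 3.71 CPM after restraint, and the log2 fold changes of the 5 genes ran from 0.30 (Zfp422) to 0.42 (Msi1). The centring was over both groups, so the match took in the difference of Scg3 between them. Positive values of these 5 genes follow from that choice.

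The rest of the peptide pathway was read from lists by function. Of 12 other convertases, carboxypeptidases and peptide-modifying enzymes, 0 passed in either direction with edgeR (adjusted p from 0.123), 6 were above 0 and 6 below, and the median log2 fold change was -0.01. At an unadjusted p under 0.05, 0 were higher and 1 was lower, against 5.64% and 6.04% of all genes. With DESeq2 it was 0 and 1, against 0.634% and 1% of all genes. The 1 gene in each case was Qpct, which encodes the enzyme that forms pyroglutamate at peptide ends. It had 32.8 ± 2.40 CPM in controls and 24.7 ± 2.87 CPM after restraint (log2 -0.40 ± 0.10). All 5 restraint libraries (up to 27.6 CPM) were below the lowest control (29.8 CPM). Furin, a convertase gene of the Golgi, stood at 0.20 ± 0.11, Pcsk6 at 0.23 ± 0.11, and Cpd, a relative of Cpe in the Golgi, at 0.13 ± 0.09. Per exon length, the most abundant of this list were Pam, which encodes the enzyme for peptide amidation (27.1 CPM per kilobase in controls, log2 -0.07 ± 0.09), the cathepsin L gene Ctsl (27.0 CPM per kilobase, 0.02 ± 0.09) and Qpct (12.9 CPM per kilobase). Other genes share 26.8% of the exon bases of Ctsl.

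Of 32 genes for the formation, transport and release of dense-core vesicles, 0 passed with edgeR (adjusted p from 0.212) and 0 with DESeq2. Their median log2 fold change was -0.07, with 11 above 0 and 21 below. At an unadjusted p under 0.05, 0 were higher and 5 lower, against 5.64% and 6.04% of all genes. Cyb561, the vesicle membrane cytochrome gene, had 117 ± 5.80 CPM in controls and 92.3 ± 18.1 CPM after restraint (log2 -0.34 ± 0.11), with restraint 5 alone above the control median. Without restraint 5 it was -0.48 and passed with edgeR (adjusted p = 0.0136, up to 0.421 with other libraries left out). Another gene shares 10.3% of its exon bases. Stx1a, a SNARE gene, stood at -0.30 ± 0.09, the Rab gene Rab27b at -0.26 ± 0.11, and Resp18, a vesicle protein gene, at -0.21 ± 0.09. Resp18 had 320.1 CPM per kilobase in controls, next to Pcsk1n in level, and all 5 restraint libraries lay below its control median, but its log2 fold change was -0.08 with the exon length trend removed. Snap25 (478 CPM per kilobase in controls) and Rab3a (475 CPM per kilobase), which also serve small synaptic vesicles, stood at 0.12 ± 0.10 and 0.05 ± 0.10 on the log2 scale.

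Of 52 neuropeptide precursor genes, whose products these enzymes process, 42 were tested and 10 did not pass the filter on low counts. None passed with edgeR (0 of 42, adjusted p from 0.174) or with DESeq2 (0), the median log2 fold change was -0.03, and 19 were above 0 and 23 below. At an unadjusted p under 0.05, 2 were higher and 3 lower, against 5.64% and 6.04% of all genes. Cck, the cholecystokinin gene, had 57.9 ± 20.3 CPM in controls and 102 ± 34.1 CPM after restraint (log2 0.82 ± 0.23), with control 5 at 93.0 CPM and restraint 1 at 50.3 CPM inside the other group's range. Nucb2, which encodes the nesfatin precursor, stood at 0.30 ± 0.09, and Pomc, at 2.17 ± 0.358 CPM in controls, at -0.57 ± 0.22. Ghrh had 1.17 ± 0.328 CPM in controls and stood at -1.01 ± 0.36. Pmch, the melanin-concentrating hormone gene, named here after its value was seen as the lowest of the plot of pathway lists, stood at -1.66 ± 0.71. That standard error is wide beside the median of 0.136 over all genes. The most abundant precursors per exon length were Cartpt (324 CPM per kilobase in controls, log2 0.20 ± 0.28), Sst (161 CPM per kilobase, 0.23 ± 0.19) and Penk (97.3 CPM per kilobase, 0.00 ± 0.11), so in controls Cpe and Scg2 stood above every one of the 42 precursors tested. With 1 library left out, the log2 fold change of Cartpt ran from -0.04 (without restraint 5) to 0.41 (without restraint 1) and that of Sst from 0.11 (without restraint 5) to 0.38 (without restraint 4).

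**Figure D5:**
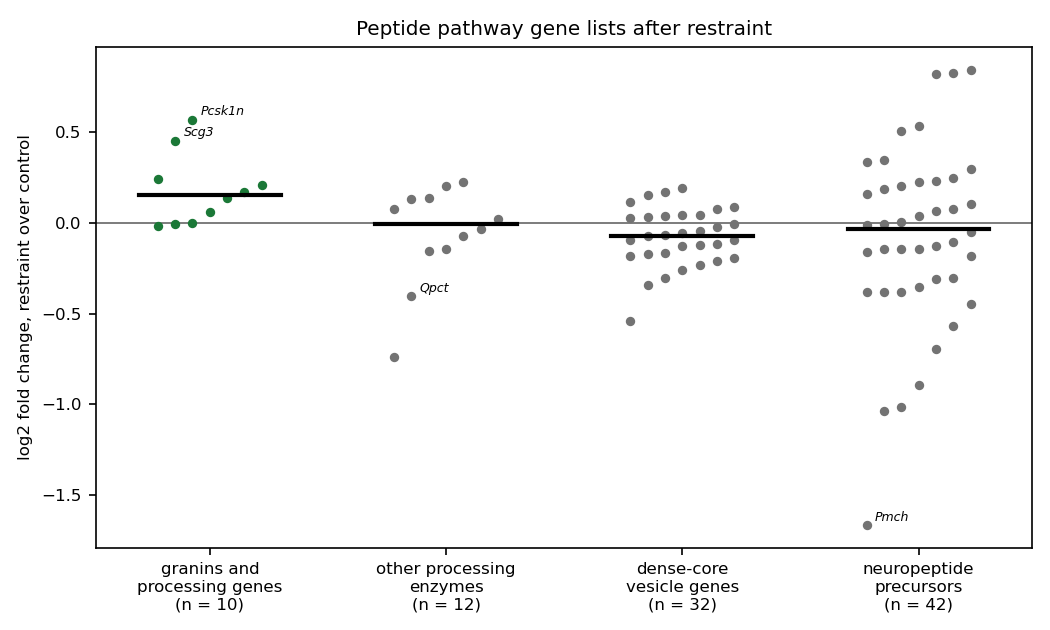
Fitted log2 fold change (vertical axis) of each tested gene in the 10 granin and processing genes (green) and 3 other lists of the peptide pathway (grey), with the median of each list as a black line. The median is 0.15 in the first list and -0.01, -0.07 and -0.03 in the others, and 0 genes of any list passed with edgeR.

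Markers of cell types were read by list beside these values. At an adjusted p under 0.05 (edgeR), 0 passed in any marker list, against 0.0217% of all genes. Astrocyte markers, with 9 of 12 above 0 and a median log2 fold change of 0.20, summed to 5072 to 5663 CPM in controls and 5695 to 6904 CPM after restraint. Gfap alone made up 1919 ± 121 and 2471 ± 316 CPM of these sums. Dopamine neuron markers, with 11 of 13 above 0 and a median of 0.30, summed to 2015 to 2773 and 2274 to 3164 CPM. Endothelial and pericyte markers (9 of 10 above 0, median 0.24) summed to at most 17.7 CPM in controls and 23.2 CPM after restraint, and microglia markers (5 of 10 above 0) to at most 37.7 and 33.2 CPM. Oligodendrocyte markers (7 of 11 above 0, median 0.09) summed to 1615 to 1972 and 1545 to 2146 CPM, GABA neuron markers (4 of 7, 0.00) to 1478 to 1866 and 1703 to 1993 CPM, and glutamate neuron markers (2 of 4, 0.18) to 429 to 450.0 and 378 to 498 CPM. The 3 serotonin neuron markers (0 of 3 above 0) summed to 48.7 to 143 and 8.26 to 116 CPM. At an unadjusted p under 0.05 (edgeR), 7 of 13 dopamine neuron and 4 of 12 astrocyte markers were higher, against 5.64% of all genes. So were 3 oligodendrocyte, 3 endothelial and pericyte, 1 GABA neuron and 1 glutamate neuron markers, and 0 microglia and 0 serotonin neuron markers. In each marker list 0 were lower, against 6.04% of all genes. With DESeq2 at an adjusted p under 0.05, 3 of 13 dopamine neuron and 2 of 12 astrocyte markers were higher, against 0.634% of all genes. In the remaining marker lists 0 were higher, and in every marker list 0 were lower, against 1% of all genes. The dopamine neuron markers ran from -0.05 (Ddc) to 0.57 (En1) on the log2 scale. Their lowest adjusted p with edgeR was 0.0662, like that of Scg3. Of the markers in these lists only Fev, a serotonin neuron gene, was at 0 in any library (1 of 10). The part of these marker differences in the values of Scg3 and the other granin genes was not tested.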

How the data were processed

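The authors deposited 1 table of whole-number read counts per gene and library. Per the file headers, featureCounts 2.0.3 assigned paired-end reads to GENCODE M30 exons with no strand option. Most low counts are even, as when both reads of a pair are counted. FastQC, Trimmomatic, STAR and mm10 stand in the submitters' processing notes. GENCODE M30 describes GRCm39, so table coordinates are given as GRCm39. Exon length is the deposited length in the same table. Symbols came from GENCODE M21 by identifier (52073 of 56691).

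The sample titles gave each library's group and number. Genes were kept by edgeR's filterByExpr (a CPM equal to about 10 counts in at least 5 libraries, and 15 counts in total). After TMM normalization they were tested with edgeR 4.0.16 (glmQLFit, glmQLFTest, group as the one term, R 4.3.3). Benjamini-Hochberg adjustment was over 18440 genes, with a threshold of 0.05. The standard error is the log2 fold change divided by the square root of F, with a median of 0.136 over all genes. Log2 CPM used a prior count of 2. Member correlations used 100000 permutations within groups, or 20000 where a library was left out, in Python 3.11.15. The code for the gene test was first tested on simulated data. No 2 libraries of a group agreed within sampling noise (smallest chi-square per degree of freedom 29.5).

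The members and lists were chosen with earlier results of these data known. Genes named from each pathway list are the 4 with the smallest p and the 3 with the highest control level per exon length. For likeness to Scg3 the 5 nearest genes that had a symbol and were no predicted gene models were named, and from marker lists a few defining genes. Alternatives were RLE and upper quartile normalization, other filters (every gene with a count, or CPM of at least 1), DESeq2 1.42.0, limma-voom (limma 3.58.1) alone or with quality weights, robust dispersion estimates, a replicate block, removal of each library's exon length trend or GC trend (lowess, span 0.3), and leaving out each library. GC content came from GENCODE M21 transcripts, with a value for 98.2% of tested genes and all 10 members.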

Additional observations from a re-analysis of the deposited data

Results flagged for a closer look

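In the check of each gene within each group for a library far from the other 4, Cpe in control 2 was set apart. It had 2508 CPM, against 3398 to 3673 CPM in the other controls, and the gap to its neighbour was 0.764 of the whole range, above the critical value of 0.71 for 5 libraries. This was 1 of 20 groups checked, and chance gives about 1 in 20. Without control 2 the log2 fold change of Cpe was -0.10.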

How the results depend on the processing

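With edgeR, 1 gene was higher, 3 lower and 0 of the 10 members passed. Counting every gene with at least 1 count gave 103 higher, 199 lower, 2 members (Scg3 and Pcsk1n) and 4 other pathway genes. DESeq2 gave 117, 185, 1 member (Scg3) and 1 pathway gene (Qpct), limma-voom with quality weights 21, 66 and 1 member (Scg3), and removal of the exon length trend 20, 48 and 1 member (Scg3). Robust estimation gave 0 and 0, and removal of the GC trend, added after the data were seen, 2 higher. With 1 library left out, 0 to 9 genes were higher and 0 to 83 lower, the most without restraint 5, which also brought 1 member (Scg3) and 1 pathway gene (Cyb561) past the threshold. The median of the members ran from 0.10 to 0.19 with 1 library left out and kept within the replicate spread in all alternatives run. The cause of these differences was not tested. With the replicate block, 0 genes were higher and 0 lower and 0 members passed. The adjusted p of Scg3 was then 0.314 (edgeR), against 0.0662 without the block. The labels do not say whether same-numbered libraries are paired, and these 10 libraries cannot settle it. Deviations of same-numbered libraries correlated at -0.445 to 0.262 (1 of 5 above 0.1), and 1 of 5 controls was closest to its own number. The log2 fold change of Scg3 was positive in all 21 alternatives (0.40 to 0.50), as were those of Scg2, Chgb, Vgf, Pcsk1 and Pcsk1n, while Scg5 kept its sign in 20, Pcsk2 and Cpe in 16 each and Chga in 10. All 21 refit counts of these same libraries, by whose Scg3 level the list was chosen, so the constant sign of Scg3 is no added support. The members' lowest count was 3273, so the spread between libraries, not counting error, set their precision.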
